A study of Mus musculus with 28 samples.

Results

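Unstimulated dendritic cells were compared with themselves over 12 h of culture: the 4 mock RNA libraries of 9 h and 12 h against the 4 mock RNA libraries of 1 h and 2 h. These 8 libraries were chosen by their labelled treatment and time, out of 28 samples in the series, of which 26 are RNA libraries. Their values were deposited for 3147 genes, all of which were tested. The question was how far the transcripts of cells that received no stimulus drifted after an exchange of culture medium. The 1 h and 2 h libraries are called the early window and the 9 h and 12 h libraries the late window.

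All cells of the series were dendritic cells grown with the cytokine GM-CSF from the bone marrow of female C57BL/6J mice aged 6 to 8 weeks. Non-adherent and loosely attached cells were replated on day 8 of culture and treated on day 9. Mock cells received no stimulation. The stimulated cells used for comparison received LPS, a component of the outer membrane of Gram-negative bacteria. Cells of both arms had been grown in medium carrying medium-heavy (M) amino acids for protein labelling, and this was replaced by medium with heavy (H) amino acids at 0 h. Mock cells are therefore cells without LPS that did undergo the medium exchange, and the 2 libraries of 0 h hold the state before it. Each time and arm had 2 replicates. The labels do not say whether these came from separate cultures or mice, so the p-values reflect only how these libraries vary, which may be technical variation.

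Dendritic cells present antigen to T cells, and their maturation can be set off by bacterial products through Toll-like receptors. Bone marrow cultures grown with GM-CSF are known to be mixed, with cells resembling dendritic cells beside cells resembling macrophages and remaining granulocytes. Handling, fresh medium and plating can each alter the state of such cells, which is why unstimulated cells are followed in parallel with stimulated ones. In bulk RNA of such a culture, fewer cells of a type and less RNA per cell cannot be told apart.

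The cell type label was checked against its markers. Of 23 dendritic cell markers 8 were listed, among them the integrin chain Itgax (CD11c), whose mock levels of 1 h, 2 h, 9 h and 12 h lay between 684 and 925 transcripts per 1000000 listed (TPM). The MHC class II invariant chain Cd74 lay between 3859 and 10404 TPM and the GM-CSF receptor chain Csf2ra between 415 and 708 TPM. Macrophage markers were also high, led by the lysozyme gene Lyz2 at 17548 to 41633 TPM. None of 14 mast cell and basophil markers and none of 23 B, T and NK cell markers was listed. How the listed genes were selected is not known, so a marker that was not listed may still have been expressed. The missing rows thus do not show that these cells were absent. Of 14 erythroid markers 1 was listed, the carbonic anhydrase gene Car2, at 8.27 to 25.5 TPM. Every column summed to 1000000 TPM over the 3147 listed genes, so the depth of the libraries is unknown and values are relative to these genes. The median gene of the 8 libraries stood at 69.8 to 73.8 TPM.

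No transcript passed the test between the early and the late window. limma called 0 of 3147 genes at a Benjamini-Hochberg adjusted p under 0.05 (0%), and the smallest adjusted p was 0.298. At an unadjusted p under 0.05 there were 55 genes (1.75%), 25 with higher (0.794%) and 30 with lower (0.953%) late levels. That share is below the 0.05 that such a threshold passes on average when no gene differs. With a term for the replicate number 172 genes passed it, the smallest adjusted p was 0.0618 and 0 genes were called. The errors and p-values of single genes below come from the fit without that term. No other tool was run for this comparison. The 4 late libraries lay wholly outside the range of the 4 early libraries for 77 genes (2.45%), above it for 35 (1.11%) and below it for 42 (1.33%).

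The differences themselves were small. The median gene differed by -0.03 on the log2(TPM + 1) scale, late minus early, and the median size of the difference was 0.11. For 95% of genes the size was at most 0.37, and for 99% at most 0.58. Estimates went past 1.5-fold for 30 genes (0.953%) and past 2-fold for 3 (0.0953%), namely Ifi205, Arg1 and C5ar1. In 2563 genes (81.4%) the highest of the 8 libraries was within 2-fold of the lowest in TPM.

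A p above the threshold does not show that levels were equal, so the interval of each difference was read as well. The 95% interval lay wholly within 2-fold either way for 2794 genes (88.8%) and within 1.5-fold for 1500 (47.7%). The median standard error was 0.22 on the log2 scale. Precision depended on level: of 83 genes under 10 TPM 49 (59.0%) had an interval within 2-fold, against 477 of 563 (84.7%) between 10 and 30 TPM and 1179 of 1284 (91.8%) between 30 and 100 TPM. Between 100 and 300 TPM the number was 660 of 747 (88.4%), and from 300 TPM upward 429 of 470 (91.3%). For the other 353 genes the interval of this fit reached past 2-fold. This fit had no term for the replicate number. With such a term the interval reached past 2-fold for 84 genes and lay within 1.5-fold for 2351.

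**Figure D1:**
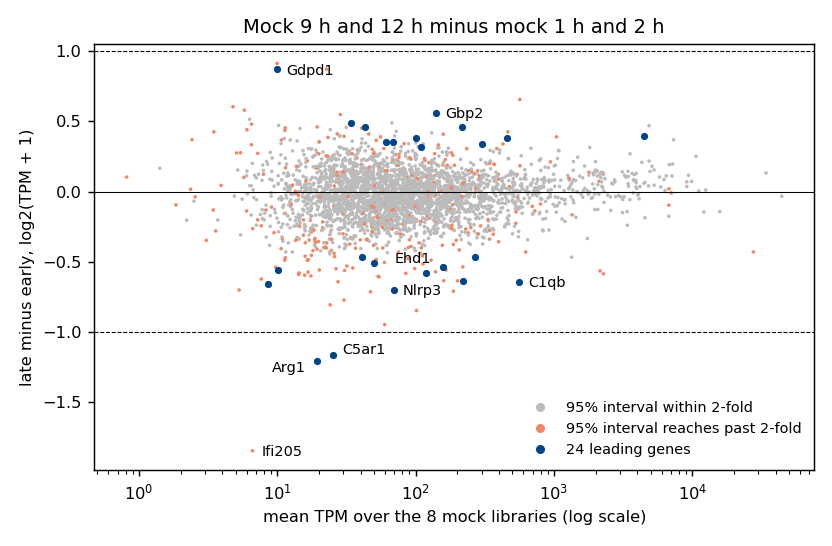
Difference between the late and the early mock window (log2 scale, vertical axis) against the mean TPM of the 8 libraries (log axis) for each of the 3147 genes. Grey points are the 2794 genes whose 95% interval stays within 2-fold, orange points those whose interval reaches further, blue points the 24 genes described singly, and dashed lines mark 2-fold; 3 genes lie past a dashed line.

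Cells given LPS differed far more between the same hours. There, 1462 of 3147 genes (46.5%) were called between the windows, 359 (11.4%) higher late and 1103 (35%) lower late. Under median-ratio rescaling 632 were higher (20.1%) and 579 lower (18.4%). Quantile normalization gave 604 higher and 589 lower, and 912 genes were called when the LPS libraries of these times were fitted alone. The libraries of the windows did not overlap for 1067 genes (33.9%). Estimates went past 1.5-fold for 1429 genes (45.4%) and past 2-fold for 684 (21.7%). The median LPS gene stood at -0.36, late minus early, and at -0.03 after median-ratio rescaling, which centres the libraries on their median gene. TPM values are shares of a fixed total, so the absolute direction of the listed genes together cannot be read from them, and the LPS medians below are to be read against -0.36. For mock cells the same median was -0.03 and, rescaled, -0.01. The median size of the difference was 0.53 with LPS against 0.11 in mock cells.

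**Figure D2:**
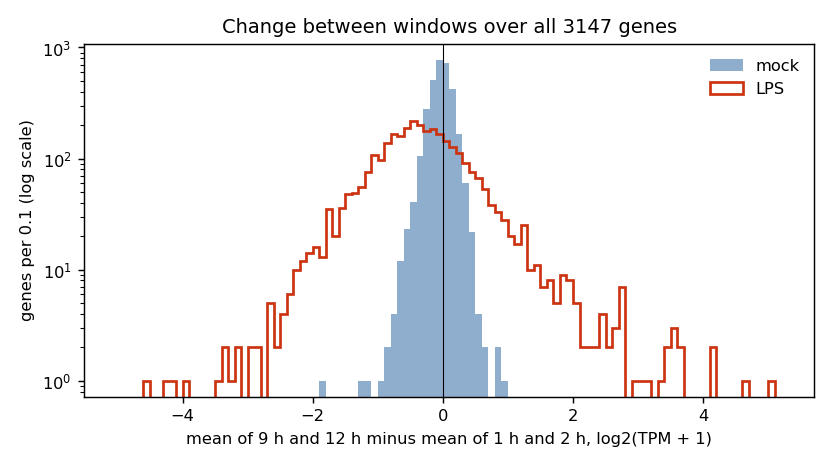
Number of genes (log axis) by difference between the late and the early window, in bins of 0.1 on the log2(TPM + 1) scale, for mock cells (blue bars) and LPS cells (red outline). The mock differences lie between -1.85 and 0.91, the LPS differences between -4.57 and 5.10.

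A test of the difference between the arms, LPS late minus early against mock late minus early, called 814 genes (25.9%), 225 higher (7.15%) and 589 lower (18.7%) with LPS. After median-ratio rescaling the split was 379 higher and 273 lower, and after quantile normalization 332 higher and 254 lower, so the balance of directions depended on the scaling. In shares of all genes the rescaled split was 12% higher and 8.67% lower. Genes named singly were chosen in part for their mock values, which enter this difference. For genes picked as the edge of the mock distribution and called in this difference, the LPS change itself is therefore given, here or below, with its own test.

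Since no gene was called, the genes described next were picked after their values were seen, from the 28 genes (0.89%) with an unadjusted p under 0.05, windows that did not overlap and at least 10 TPM in the higher window. Of these 16 (0.508%) stood lower and 12 (0.381%) higher in the late window, and the 12 largest each way are given. They are described as the edge of the distribution, and each adjusted p was 0.298 or higher.

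Receptors and sensors of innate immunity were among those with lower late values. C5ar1, the receptor for the complement fragment C5a, had 35.7 and 34.5 TPM at 1 h and 35.7 and 35.3 TPM at 2 h. It had 18.4 and 16.8 TPM at 9 h and 9.75 and 17.3 TPM at 12 h. All late values were below all early ones, and the early values were nearly equal. The mean was 35.3 ± 0.583 TPM early and 15.6 ± 3.95 TPM late (SD, n = 4 libraries each), a log2 difference of -1.17 ± 0.24 (SE), with a 95% interval from -1.67 to -0.66 and an adjusted p of 0.298. Before the exchange C5ar1 stood at 28.3 and 29.4 TPM, and between the windows it stood at 43.7 and 27.4 TPM at 4 h and at 26.5 and 20.2 TPM at 6 h. In LPS cells C5ar1 was at 147 to 182 TPM in the early window and at 3.46 to 13.5 TPM in the late one, a difference of -4.57 ± 0.24 (adjusted p = 8.5e-10).

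Nlrp3, the sensor of the inflammasome that activates caspase-1, had 79.0 and 85.4 TPM at 1 h, 88.1 and 90.8 TPM at 2 h, 65.0 and 50.4 TPM at 9 h, and 44.3 and 52.2 TPM at 12 h. The windows did not overlap, and the 6 h values of 64.8 and 66.1 TPM lay around the top of the late range. The Nlrp3 mean was 85.8 ± 5.05 TPM early and 53.0 ± 8.69 TPM late (SD, n = 4), a log2 difference of -0.70 ± 0.16 with an adjusted p of 0.527. Nlrp3 had stood at 76.7 and 59.2 TPM before the exchange, so its early values were above both of these and 3 of its 4 late values below both. With LPS it went from 384 to 518 TPM early to 92.4 to 118 TPM late.

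Ptgs1, cyclooxygenase 1 of prostaglandin synthesis, had early values of 129, 148, 118 and 179 TPM and late values of 96.3, 97.6, 85.1 and 99.8 TPM. A single early library, replicate 2 of 2 h, stood above the rest, and the late libraries were close together. The log2 difference of Ptgs1 was -0.58 ± 0.16 (adjusted p = 0.999). Clec10a, a galactose-binding C-type lectin of dendritic cells and macrophages, had early values of 322, 246, 279 and 220 TPM and late values of 141, 175, 167 and 202 TPM. Its windows did not overlap, but its values of 4 h and 6 h, 148 to 197 TPM, were already in the late range. The Clec10a difference was -0.63 ± 0.25. In LPS cells Ptgs1 fell by 3.47 and Clec10a fell by 4.12 on the log2 scale, with adjusted p of 4.8e-10 and 2.8e-09.

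Arg1, the arginase that breaks arginine down to ornithine, had early values of 21.2, 25.7, 32.4 and 28.4 TPM and late values of 13.4, 15.9, 9.91 and 6.71 TPM. The replicates of Arg1 were far apart at 6 h, with 28.8 and 5.80 TPM, and at 0 h, with 33.0 and 15.3 TPM, so the late values were not outside the spread seen at other mock times. Its log2 difference of -1.21 ± 0.42 had a 95% interval from -2.09 to -0.33. C1qb, a chain of the complement component C1q and a macrophage marker, had early values of 884, 594, 765 and 505 TPM and late values of 465, 460, 371 and 427 TPM. Replicate 1 was above replicate 2 for C1qb in the early window and at 0 h, with 809 and 513 TPM. The difference was -0.64 ± 0.27.

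**Figure D3:**
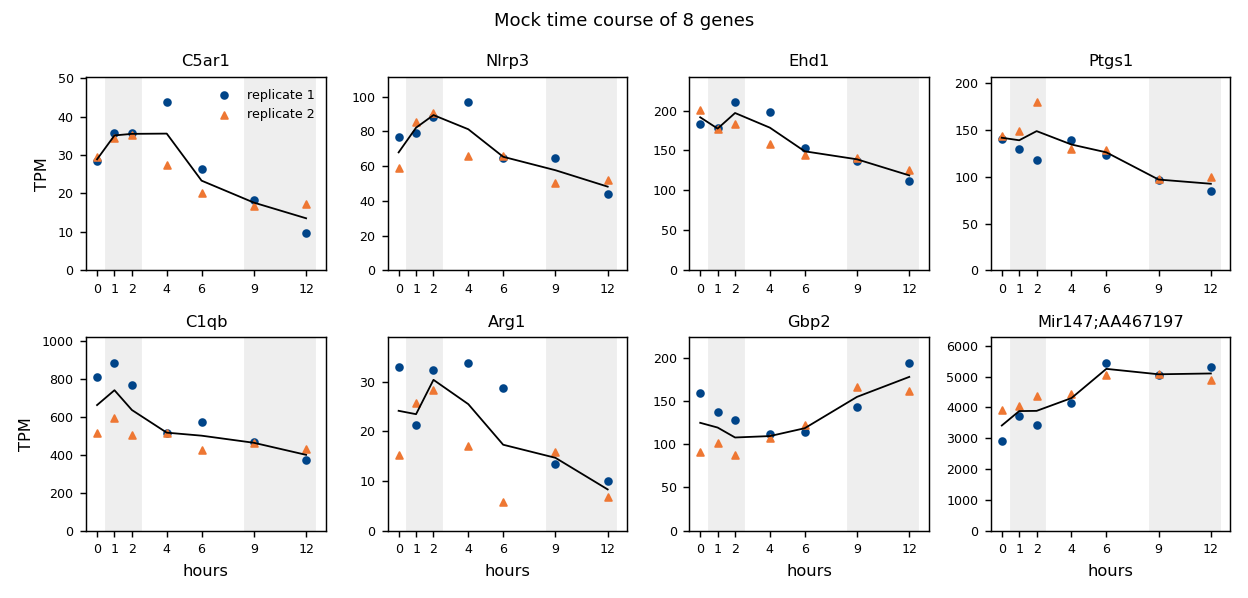
TPM of 8 genes in every mock library against hours after the medium exchange (0 h is before it), with replicate 1 as circles, replicate 2 as triangles and the mean as a line; the windows compared are shaded. C5ar1, Nlrp3, Ehd1, Ptgs1, C1qb and Arg1 stand lower and Gbp2 and Mir147;AA467197 higher in the late window, with no overlap of the 4 against 4 libraries.

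The other genes of the 12 with lower late values had varied roles. Ehd1, an ATPase of endocytic recycling, had early values of 178, 177, 210 and 184 TPM and late values of 137, 141, 112 and 126 TPM. Its replicates were close, its windows did not overlap, and 0 h, with 183 and 200 TPM, lay in the early range. The Ehd1 difference was -0.54 ± 0.11 with a 95% interval from -0.77 to -0.30 and an adjusted p of 0.298. Lima1, which bundles actin, stood at 47.9 ± 6.62 TPM early and 34.5 ± 4.54 TPM late, and Tuba1c, an alpha-tubulin, at 313 ± 37.4 and 228 ± 42.4 TPM (SD, n = 4). Rrs1, a factor of ribosome assembly, stood at 58.1 ± 2.11 and 41.2 ± 8.74 TPM, and Ctps, the enzyme that makes CTP, at 12.3 ± 1.79 and 7.97 ± 0.986 TPM. The remaining gene, Armc6, stood at 10.6 ± 1.48 and 6.42 ± 1.41 TPM. These 5 differences were -0.46 to -0.66 with adjusted p of 0.999 each. Both 0 h libraries of Rrs1, at 52.1 and 38.4 TPM, lay in its late range. So did 1 of Tuba1c, at 237 TPM, and 1 of Armc6, at 7.20 TPM.

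Among the genes with higher late values was an interferon target. Gbp2, which encodes an interferon-induced GTPase, had early values of 137, 102, 128 and 87.9 TPM and late values of 143, 166, 194 and 161 TPM. Its windows were separated by a narrow gap, and a 0 h library at 159 TPM lay inside the late range while the other was at 90.6 TPM. The Gbp2 difference was 0.56 ± 0.18, with a 95% interval from 0.18 to 0.94 (adjusted p = 0.999). With LPS Gbp2 went from 162 to 421 TPM early to 2719 to 3376 TPM late, a difference of 3.56 ± 0.18 (adjusted p = 7.7e-10).

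The row Mir147;AA467197, a mitochondrial protein gene that hosts the microRNA miR-147, was the most abundant of the 24 genes. Its early values were 3728, 4035, 3417 and 4359 TPM and its late values 5066, 5085, 5320 and 4883 TPM. The 6 h libraries of Mir147;AA467197, at 5453 and 5049 TPM, already had late levels. The difference was 0.39 ± 0.14 in mock cells against 1.81 in LPS cells, in which the row rose to between 17971 and 29245 TPM. The row carries both names, and values of the host gene and the microRNA precursor cannot be told apart.

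Mitochondrial and metabolic genes followed. Acadm, the medium-chain acyl-CoA dehydrogenase of fatty acid oxidation, stood at 87.1 ± 13.4 TPM early and 113 ± 9.00 TPM late, and Slc25a22, a mitochondrial glutamate carrier, at 36.2 ± 6.62 and 49.8 ± 6.81 TPM. Guk1, guanylate kinase, stood at 182 ± 21.0 and 250 ± 15.0 TPM, and Sephs2, which makes selenophosphate for selenoproteins, at 97.9 ± 6.12 and 122 ± 2.66 TPM (SD, n = 4 each). The 0 h libraries of Guk1 were at 169 and 251 TPM, the latter inside the late range of 231 to 268 TPM. For Slc25a22 1 of the 0 h libraries, at 40.7 TPM, lay in the early range and the other, at 44.1 TPM, in the late range, and 1 late library of 42.6 TPM was barely above the highest early one of 42.4 TPM.

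The other genes were Mtpn, which stood at 393 ± 39.5 and 515 ± 72.3 TPM, Ube2m, a conjugating enzyme of the ubiquitin-like protein NEDD8, at 269 ± 27.7 and 339 ± 11.3 TPM, and Pik3r6, a regulatory subunit of PI3-kinase gamma, at 60.0 ± 5.13 and 76.7 ± 3.56 TPM. Pddc1 stood at 53.0 ± 4.82 and 68.2 ± 8.23 TPM and Golph3l, a Golgi protein, at 28.6 ± 5.71 and 40.0 ± 3.08 TPM. Gdpd1, a phosphodiesterase of lysophospholipids, had the largest higher estimate of the 12, 0.87 ± 0.33, at the low level of 6.78 ± 2.09 TPM early and 13.2 ± 3.66 TPM late. The other 5 of these 6 differences were 0.34 to 0.49. For each of these 6 genes 1 of the 0 h libraries already lay in the late range. It stood at 509 TPM for Mtpn, 333 TPM for Ube2m, 74.2 TPM for Pik3r6, 67.9 TPM for Pddc1, 36.5 TPM for Golph3l and 10.7 TPM for Gdpd1. The other 0 h library of Golph3l, at 53.2 TPM, was above that range.

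The largest estimate of all belonged to Ifi205, an interferon-inducible gene, at -1.85 ± 0.58, and it rested on very low levels. Ifi205 had 2.34, 8.37, 8.80 and 21.6 TPM in the early libraries, was listed at practically 0 in both 9 h libraries and had 3.53 and 8.17 TPM at 12 h. The windows overlapped, and the size of this estimate depends on the pseudocount.

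Lists of genes with a common role were read next, without a set test. Of 40 lists 38 had at least 1 listed gene, and 0 lists held a called member, against 0% of all genes. The medians of these lists ran from -0.56 to 0.24, beside -0.03 for all genes, of which 1749 (55.6%) had an estimate below 0. Over the alternatives, leaving out single libraries among them, the medians ran from -0.87 to 0.61 and the sign of 19 of the 38 turned, so small medians carry no stable direction. Counts at an unadjusted p under 0.05 are given below beside 25 higher and 30 lower among all 3147 genes.

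**Figure D4:**
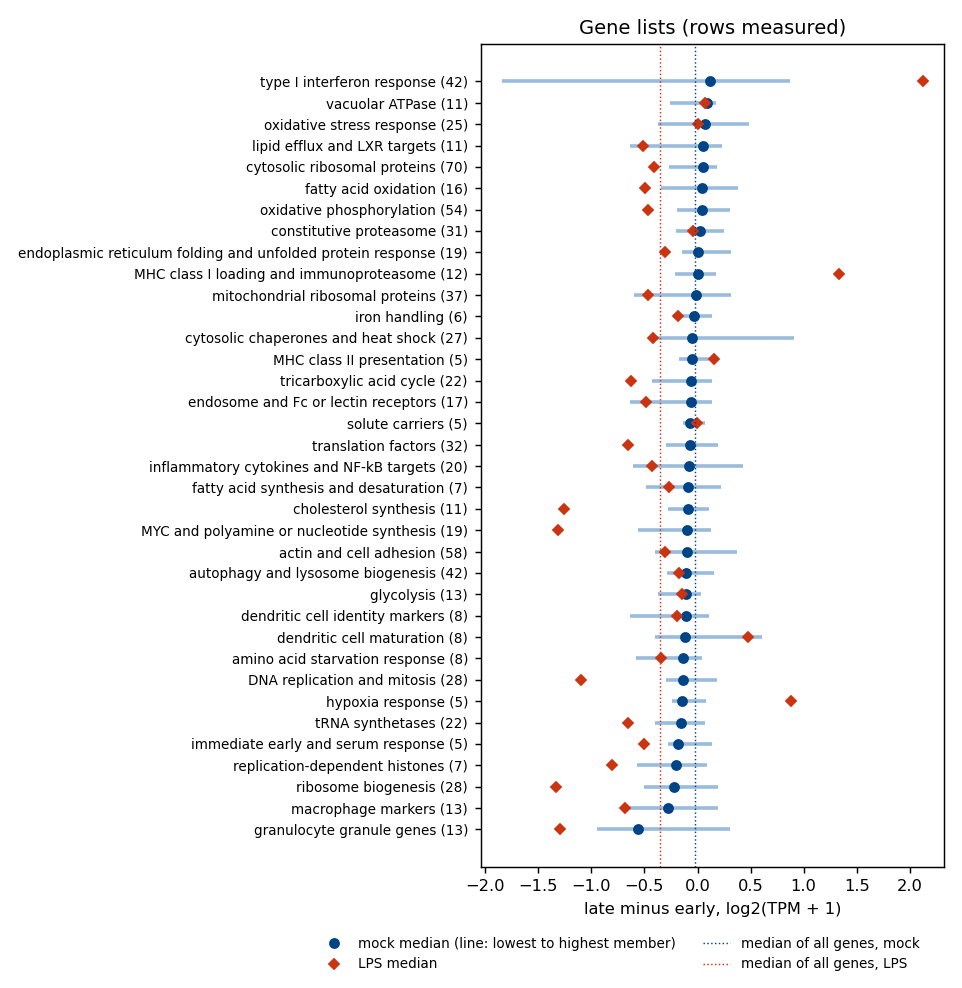
Median late minus early difference (log2 scale) of each gene list with at least 5 listed genes, for mock cells (blue circle, with a line from the lowest to the highest member) and LPS cells (red diamond); the number of rows is in brackets and dotted lines are the medians of all genes. Mock medians lie near -0.03, with granulocyte granule genes the lowest at -0.56, while LPS medians spread from -1.34 for ribosome biogenesis to 2.13 for the interferon response.

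Genes of antigen presentation had median estimates near 0, but for MHC class II the replicates went opposite ways. The 5 MHC class II rows had a median of -0.06, with -0.35 in replicate 1 and 0.25 in replicate 2. Cd74 differed by -0.44 in replicate 1 and 0.25 in replicate 2, and H2-Ab1 by -0.39 and 0.27. H2-Aa, the alpha chain of I-A, was at 3220 ± 684 TPM early and 3406 ± 100 TPM late, and H2-Ab1, its beta chain, at 3262 ± 1014 and 3026 ± 222 TPM (SD, n = 4). Cd74 was at 7214 ± 3242 and 6325 ± 1487 TPM, a difference of -0.10 ± 0.50, and its replicate 1 was above its replicate 2 at each of the 4 times. The wide interval of Cd74, from -1.15 to 0.96, spans changes of about 2-fold either way. Of 12 genes of MHC class I loading and the immunoproteasome, all 12 had intervals within 2-fold and the median was 0.00. The row BC002288;B2m, the class I light chain, was at 6323 ± 160 and 6368 ± 390 TPM and Psmb9, an immunoproteasome subunit, at 159 ± 37.2 and 136 ± 23.1 TPM.

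In LPS cells the median of the class I list was 1.33, and 9 of its 12 genes exceeded their mock difference while 1 lay below it (10 and 0 after median-ratio rescaling), beside 7.15% and 18.7% of all genes (12% and 8.67% rescaled). The row BC002288;B2m exceeded its mock difference by 1.17 ± 0.16 (adjusted p = 6.4e-05) and Psmb9 by 1.89 ± 0.27 (adjusted p = 0.00011). None of the 5 class II rows differed between the arms at an adjusted p under 0.05.

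Lists of maturation and inflammation genes had medians near 0 in mock cells, but not all members had small estimates. Of 8 maturation genes, 2 had estimates above 0 and 6 below, with a median of -0.12. The interval lay within 2-fold for 6 of these 8 and for 14 of the 20 inflammatory genes below, beside 88.8% of all genes. The costimulatory receptor Cd40 had early values of 5.06, 1.40, 5.00 and 3.21 TPM and late values of 3.87, 8.58, 6.44 and 4.65 TPM, which overlapped, and its difference was 0.60 ± 0.30. In LPS cells Cd40 exceeded this by 1.49 ± 0.42 (adjusted p = 0.015, and 0.055 with a pseudocount of 0.1). Of 20 inflammatory cytokines and NF-kB targets, 15 had estimates below 0, the median was -0.08 and 0 passed an unadjusted p under 0.05. The interleukins Il1b and Il1a had differences of -0.49 ± 0.42 and -0.60 ± 0.47. In size, those of Cd40 and Il1a went past 0.58, the bound that held for 99% of all genes. The chemokine Ccl6, the most abundant member, was at 12779 ± 1746 TPM early and 11496 ± 845 TPM late.

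Among lists with 5 or more genes, the interferon response had the widest gap between the medians of the arms. Its 42 genes had a mock median of 0.12, with 31 estimates above 0 and 11 below, and 3 genes higher and 1 lower at an unadjusted p under 0.05. The 3 were Gbp2, Rsad2 and Ifit2, and the 1 was Ifi205. Against 2 h alone the mock median turned to -0.14, and against 1 h alone it was 0.31. Rsad2, the antiviral protein viperin, had early values of 9.97, 11.2, 19.4 and 14.6 TPM and late values of 13.2, 64.7, 13.3 and 34.8 TPM. Only the late libraries of replicate 2 were above the early range, and the median of the list was 0.20 in replicate 2 and -0.04 in replicate 1. Ifit2, another antiviral gene, likewise had 1 late library, replicate 2 of 9 h at 13.2 TPM, well above the rest, which ran from 2.52 to 6.74 TPM. In LPS cells 40 of the 42 genes rose and 1 fell between the windows, the median was 2.13, and 39 exceeded their mock difference (40 after median-ratio rescaling), beside 7.15% of all genes (12% rescaled).

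Markers of other cells in the culture were summed per library. The 8 dendritic cell markers summed to 10389 to 19573 TPM early and 12369 to 16723 TPM late (exact two-sided permutation test, p = 0.686). The 13 listed of 26 macrophage markers summed to 31852 to 55190 TPM early and 31825 to 46361 TPM late (exact p = 0.2). The 13 listed of 24 granulocyte granule genes summed to 5506 to 11719 TPM early and 4342 to 8899 TPM late (exact p = 0.171). With 70 splits of 8 libraries the smallest two-sided p is 0.0286. That value is reached only when the windows separate fully. Of 38 list sums tested 0 had an exact p under 0.05, and the smallest p adjusted over them was 0.543. An adjusted p under 0.05 was out of reach unless most lists separated fully at once, so nothing is concluded from it. The smallest exact p was 0.0571, for the sums of ribosome biogenesis, of tRNA synthetases, and of autophagy and lysosome genes, all lower late. In the dendritic cell, macrophage and granulocyte sums replicate 1 was above replicate 2 at all 4 times, and the permutations took no account of replicate number. Within each replicate the late granulocyte sums lay below the early ones. They went from 11719 and 9606 to 8899 and 5189 TPM in replicate 1. In replicate 2 they went from 6002 and 5506 to 4342 and 4767 TPM. The dendritic cell and macrophage sums were lower late in replicate 1 but overlapped between the windows in replicate 2.

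**Figure D5:**
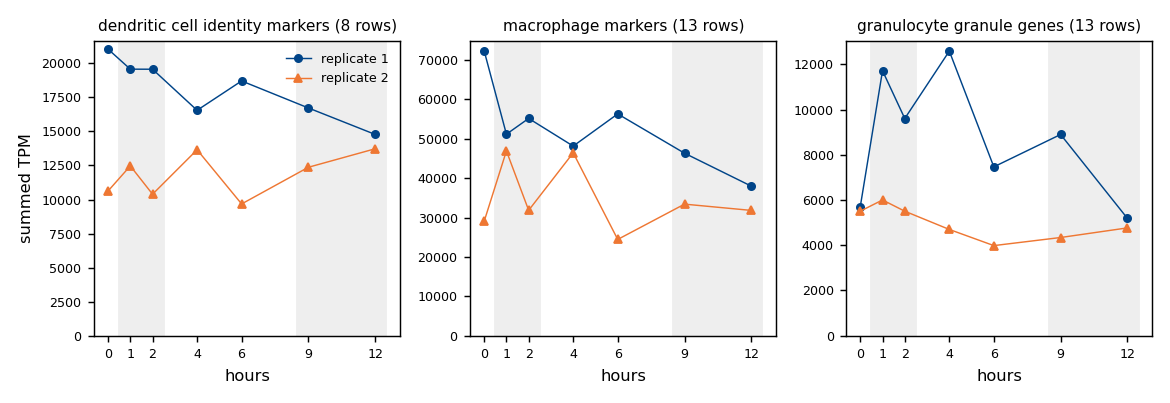
Summed TPM of the listed dendritic cell, macrophage and granulocyte markers in each mock library against hours after the medium exchange, with replicate 1 as circles and replicate 2 as triangles and the windows shaded. Over both replicates the early and late ranges overlap in each panel, and replicate 1 lies above replicate 2 in all shaded times. Within each replicate the late granulocyte sums lie below the early ones.

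Granulocyte granule genes had the lowest median of any list with 5 or more genes, -0.56, with 11 of 13 estimates below 0, but 0 passed an unadjusted p under 0.05 and only 3 had an interval within 2-fold. The fit behind these values had no replicate term, so the gap between the replicates enters their errors. The p-values thus do not show that levels stayed equal. The median was -0.18 without replicate 2 of 9 h, -0.21 without replicate 1 of 1 h, -0.30 without replicate 1 of 2 h, -0.86 without replicate 2 of 1 h and -0.87 without replicate 1 of 9 h. The calcium-binding proteins S100a8 and S100a9 were at 2508 ± 1145 and 2735 ± 1025 TPM early and at 1801 ± 1171 and 1826 ± 782 TPM late. The early libraries of S100a8 were 3670 and 3300 TPM in replicate 1 and 1673 and 1387 TPM in replicate 2, so the spread by replicate was wider than the difference of the means. Within replicate 1 the windows of S100a8 overlapped, and within replicate 2 they did not. Ltf, Camp and Ngp, all of neutrophil granules, had differences of -0.95 ± 0.90, -0.85 ± 0.57 and -0.71 ± 0.66. For S100a9, Ltf, Camp and Ngp the late values lay below the early ones within both replicates. Ngp, for example, went from 348 and 318 to 281 and 135 TPM in replicate 1, and from 123 and 133 to 83.2 and 79.4 TPM in replicate 2. Against 0 h the list had a median of 1.10 in the early and 0.49 in the late window. Whether a change in cell makeup contributed was not tested.

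Macrophage markers had a median of -0.28, with 11 of 13 estimates below 0 and 3 genes lower at an unadjusted p under 0.05. The median was -0.12 without replicate 1 of 2 h or replicate 2 of 9 h, and -0.49 without replicate 2 of 2 h. The 3 genes were C1qb, the lipid carrier Apoe and the scavenger receptor Msr1. Apoe had early values of 813, 633, 852 and 464 TPM and late values of 444, 447, 363 and 479 TPM, so the windows overlapped through 1 early library. Msr1 stood at 238 ± 28.8 and 194 ± 1.43 TPM. Lyz2 differed by -0.43 ± 0.56, and Mrc1, the mannose receptor, by -0.28 ± 0.19. In LPS cells Mrc1 fell by 3.17, or -2.89 ± 0.27 relative to its mock difference (adjusted p = 1.8e-06). Among dendritic cell markers Itgax differed by 0.04 ± 0.27, Csf2ra by -0.13 ± 0.21 and the transcription factor Irf4 by -0.35 ± 0.25. Of these 8 markers 1, Clec10a, was lower at an unadjusted p under 0.05.

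Genes of lipid synthesis differed little in mock cells. All 11 listed genes of cholesterol synthesis had intervals within 2-fold, with a median of -0.09 and 10 of 11 estimates below 0. The demethylase Cyp51 had early values of 135, 147, 136 and 206 TPM and late values of 119, 141, 114 and 132 TPM, which overlapped, a difference of -0.28 ± 0.23. Idi1 and Fdps, further enzymes of the pathway, differed by -0.27 ± 0.16 and -0.07 ± 0.26. In LPS cells the median was -1.26, against -0.36 for all genes. There Cyp51 fell by 3.16, and 8 of the 11 genes lay below their mock difference, 6 after median-ratio rescaling, under which 1 lay above it, beside 18.7% of all genes lower (8.67% rescaled). Fatty acid synthase, Fasn, differed by -0.49 ± 0.33 in mock cells and by -2.91 with LPS (adjusted p of the difference between the arms 0.0012).

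Energy metabolism differed little. The 54 listed genes of oxidative phosphorylation had a mock median of 0.04, and 51 had intervals within 2-fold. Atp5e of ATP synthase was at 2597 ± 158 TPM early and 2531 ± 180 TPM late, and Ndufa6 of complex I at 324 ± 78.3 and 369 ± 17.7 TPM. The 22 genes of the tricarboxylic acid cycle had a median of -0.06 and the 16 of fatty acid oxidation 0.04. In glycolysis 12 of 13 estimates were below 0 with a median of -0.11. The lactate dehydrogenase Ldha was at 1406 ± 259 and 1344 ± 207 TPM and the hexokinase Hk2 at 120 ± 37.2 and 91.7 ± 18.3 TPM. The 5 listed genes of the hypoxia response had a median of -0.14 in mock and 0.88 in LPS cells.

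Genes that make and run ribosomes did not pass the test either. The 70 cytosolic ribosomal protein rows had a median of 0.05, 68 of them with intervals within 2-fold. Rpl26 was at 2964 ± 66.2 TPM early and 3271 ± 176 TPM late, and Rplp1 at 11174 ± 2340 and 11112 ± 1428 TPM. The 28 ribosome biogenesis genes had a median of -0.22, with 26 estimates below 0 and 3 lower at an unadjusted p under 0.05, namely Rrs1, Gar1 and Mybbp1a. Gar1, a protein of the snoRNA particles that make pseudouridine, was at 71.2 ± 5.74 and 53.6 ± 15.1 TPM, and 1 late library of 75.2 TPM lay inside the early range. Mybbp1a was at 58.0 ± 7.47 and 44.8 ± 7.74 TPM. The medians of this list were -0.25 in replicate 1 and -0.26 in replicate 2.

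With LPS the ribosome biogenesis list had a median of -1.34, 26 of 28 genes fell, beside 35% of all genes. Of these 28, 17 lay below their mock difference (10 after median-ratio rescaling), beside 18.7% of all genes (8.67% rescaled). Gar1 fell by 2.35, or -1.92 ± 0.27 relative to its mock difference (adjusted p = 8.9e-05), and Mybbp1a fell by 1.71 (adjusted p = 8.2e-05 for the difference between the arms). For the 70 cytosolic ribosomal protein rows 15 lay below their mock difference, a share near that of all genes, and 0 did after rescaling, under which 2 lay above it. The 32 translation factors had a mock median of -0.07 and the 37 mitochondrial ribosomal proteins -0.02. Of 22 tRNA synthetases 18 had estimates below 0, the median was -0.16 and 1, Rars, was lower at an unadjusted p under 0.05, at 79.6 ± 4.04 TPM early and 68.0 ± 4.85 TPM late.

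Genes of growth and division did not pass the test between the mock windows. The 28 genes of DNA replication and mitosis had a median of -0.14, with 24 estimates below 0 and 0 at an unadjusted p under 0.05. Mcm3, of the replicative helicase, was at 92.5 ± 10.8 TPM early and 76.4 ± 8.96 TPM late, and Cdk1, the mitotic kinase, at 87.7 ± 9.07 and 76.3 ± 6.39 TPM. In LPS cells the list had a median of -1.10, and 15 genes lay below their mock difference (13 after median-ratio rescaling, and 1 above), beside 18.7% of all genes (8.67% rescaled). Relative to the mock difference Cdk1 stood at -1.71 ± 0.20 (adjusted p = 1.6e-05) and Mcm3 at -1.32 ± 0.25 (adjusted p = 0.0012). The 19 genes of MYC, polyamine and nucleotide synthesis had a mock median of -0.10 and an LPS median of -1.32, with 16 of 19 below their mock difference (12 rescaled), to be read beside the same shares. Nme1, a nucleoside diphosphate kinase, was at 421 ± 44.5 and 430 ± 34.5 TPM in mock cells. The 7 listed histone genes, which polyadenylated RNA captures poorly, had a median of -0.21.

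Lists that respond to medium, nutrients and stress had medians between -0.18 and 0.18. The 8 listed genes of the amino acid starvation response had a median of -0.13. Cebpb, their most abundant member, was at 1099 ± 250 TPM early and 980 ± 144 TPM late, and Aldh18a1, of proline synthesis, at 17.0 ± 2.33 and 11.7 ± 4.89 TPM. The 5 immediate early and serum response genes had a median of -0.18, with the row AK006748;Junb at 357 ± 46.0 and 292 ± 17.9 TPM. The 4 glucocorticoid and FOXO targets had a median of 0.18, and the 5 solute carriers -0.07. The amino acid carrier chain Slc3a2 had early values of 320 and 413 TPM at 1 h and 629 and 740 TPM at 2 h, and late values of 410 to 599 TPM, so it differed within the early window more than between the windows.

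Of 25 oxidative stress genes 15 had estimates above 0 with a median of 0.07. Prdx1, a peroxiredoxin that reduces hydrogen peroxide, was higher at an unadjusted p under 0.05, with early values of 3947, 4001, 4524 and 3756 TPM and late values of 6446, 5139, 6651 and 4475 TPM. The lowest late library of Prdx1, at 4475 TPM, was inside the early range. The difference was 0.47 ± 0.17 in mock and 1.24 in LPS cells. Sod2, the mitochondrial superoxide dismutase, was at 219 ± 12.8 and 243 ± 9.66 TPM. The ferritin light chain Ftl1 was at 32600 ± 2929 and 35691 ± 2411 TPM.

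Chaperones stood near 0 as well. The 27 cytosolic chaperones had a median of -0.05 and 26 had intervals within 2-fold. The exception was the row Hspa1b;Hspa1a, inducible HSP70, whose early values of 10.2 and 19.4 TPM in replicate 1 and 0.789 and 1.43 TPM in replicate 2 were already far apart. Its difference of 0.91 ± 0.95 had a 95% interval from -1.10 to 2.92, and reads of the 2 near-identical copies cannot be told apart. Hsp90ab1 was at 2232 ± 179 and 2273 ± 147 TPM. The 19 genes of folding in the endoplasmic reticulum had a median of 0.01, with Hspa5 (BiP) at 483 ± 14.9 and 533 ± 95.2 TPM.

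Protein breakdown and the cytoskeleton completed the lists. The 31 proteasome subunits had a median of 0.03 and 30 had intervals within 2-fold. Psmb6 was at 296 ± 31.0 TPM early and 342 ± 24.9 TPM late. The 42 genes of autophagy and lysosomes had a median of -0.11 with 33 estimates below 0, and the 11 of the vacuolar ATPase 0.09 with 9 above 0. Psap, a saposin precursor of the lysosome, was at 16594 ± 1116 and 15011 ± 496 TPM and the cathepsin Ctsl at 366 ± 51.7 and 304 ± 17.2 TPM. The 58 genes of actin and adhesion had a median of -0.10 with 39 below 0. Tmsb4x, thymosin beta 4, was the most abundant of these at 44827 ± 2459 and 43835 ± 2973 TPM, and Pfn1, profilin, was at 3669 ± 403 and 3107 ± 337 TPM.

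The levels before the medium exchange were set beside those of the windows, with libraries in common, so these values are not independent. Against the 2 libraries of 0 h, limma called 0 genes in the early window (0%; 33, or 1.05%, at an unadjusted p under 0.05; smallest adjusted p 0.0758) and 0 in the late window (0%; 86, or 2.73%, unadjusted; smallest adjusted p 0.608). Without replicate 1 of 0 h, 1 gene was called in each of these, Nhlrc3, named after its values were seen, which was listed at 0 in the 0 h library that stays and at 18.4 TPM in the one left out. The median gene stood at -0.04 early and -0.07 late against 0 h. C5ar1 stood at 0.28 early and -0.89 late against 0 h, Nlrp3 at 0.34 and -0.36, and Rrs1 at 0.37 and -0.14. Their 0 h means thus lay between those of the windows. Ptgs1 stood at 0.00 and -0.58, Ehd1 at -0.04 and -0.57, C1qb at 0.06 and -0.59, and Clec10a at 0.04 and -0.60, so their early means were within 0.06 of 0 h. Golph3l, at -0.63 and -0.14, was below its 0 h level in both windows.

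Within the windows, limma called 0 genes between 1 h and 2 h (0%; 41, or 1.3%, unadjusted) and 0 between 9 h and 12 h (0%; 9, or 0.286%, unadjusted). The median size of the difference was 0.16 between 1 h and 2 h and 0.12 between 9 h and 12 h, each with 2 libraries against 2, beside 0.11 between the windows with 4 against 4. The median standard error was 0.31 for the differences within the windows, which rest on fewer libraries, and 0.22 for those between them. The sizes therefore cannot be compared directly.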

How the data were processed

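RNA values were deposited in TPM. Per the submitters' processing notes, the authors' tools were RSEM 1.2.3 and Bowtie 0.12.7, and mm9 the genome build. Libraries were polyadenylated and strand-specific, per the labels' protocols. How the 3147 listed genes were selected is not given in the sources used here. The 363 rows with several names were kept as given. Columns for 0 h were given once for each arm with equal values, and only 1 copy was read. Ribosome footprint values were not used.

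TPM holds no read depth, so precision rests on the spread between libraries. A filter of at least 1 TPM in 2 or more libraries removed 0 genes. Tests used log2 values of TPM with a pseudocount of 1, a scale that understates changes of low genes. limma 3.58.1 in R 4.3.3 fitted all 26 RNA libraries with 1 mean for each of 13 groups and the variance trended on abundance, leaving 13 residual degrees of freedom. The contrast was the mean of mock 9 h and 12 h minus the mean of mock 1 h and 2 h, and the same for LPS, their difference, and comparisons with 0 h and within windows. A gene was called at an adjusted p under 0.05 (Benjamini-Hochberg, all genes). Errors are standard errors for log2 differences and standard deviations for TPM, the latter over 2 times. Summed markers were compared by exact permutation in Python 3.11.15 with scipy 1.17.1, and figures drawn with matplotlib 3.10.9. The fit was also run on simulated data. The simulated libraries varied independently, without the deviations that real libraries of the same replicate number share. Nothing is concluded from that run.

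The members, gene lists and rules were chosen with earlier results of these data known. The rule for named genes took the largest called changes each way without overlap and at least 10 TPM in the higher window, and for each list the 3 members of smallest p and the most abundant. As 0 genes were called, the first was applied at the unadjusted p. Not every gene the rule names is printed. Alternatives were pseudocounts of 0.1 and 5, other filters, median-ratio and quantile scaling, a replicate term, no variance trend, fewer libraries in the fit, single times and leaving out each library.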

Additional observations from a re-analysis of the deposited data

Results flagged for a closer look

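The change between the windows differed between LPS and mock cells, by the test of that difference in limma, for 814 genes. All values below are log2 differences, LPS late minus early relative to mock late minus early, with an adjusted p under 0.05 over all 3147 genes. Lower and higher refer to this change and not to the level. Nlrp3, for example, is among the lower genes. Its LPS means of 443 TPM early and 110 TPM late were both above its mock means of 85.8 and 53.0 TPM. Both arms had 2 libraries per time. The genes were named in part for their mock values, which are subtracted here, so the sizes are not independent of that choice, and the LPS change itself is given where it missed the threshold.

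Genes named for their mock values stood lower with LPS for Clec10a (-3.48), C5ar1 (-3.40), Ptgs1 (-2.89), Ctps (-2.10), Lima1 (-1.31), Nlrp3 (-1.30), Rrs1 (-1.04) and Acadm (-0.87). They stood higher with LPS for Gbp2 (3.00), Slc25a22 (1.54), the row Mir147;AA467197 (1.42), Golph3l (0.97) and Ehd1 (0.69). The LPS change itself was -2.66 for Ctps, -2.00 for Nlrp3, -1.77 for Lima1, -1.55 for Rrs1 and -0.49 for Acadm. It was 2.00 for Slc25a22, 1.81 for the row Mir147;AA467197 and 1.46 for Golph3l. Each of these LPS changes had an adjusted p under 0.05 in limma. For Ehd1 the LPS change was 0.16 (adjusted p = 0.26), so its value is mostly its mock difference of -0.54. Acadm missed the threshold after median-ratio rescaling (-0.56) and quantile normalization (-0.61), and Mir147;AA467197 after quantile normalization (0.94).

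Arg1 stood higher with LPS (1.85), where it was at 81.1 and 58.0 TPM at 12 h but at 15.2 and 10.9 TPM at 9 h. Its LPS change of 0.64 missed the threshold (adjusted p = 0.22), and most of the 1.85 is its mock difference of -1.21. The Arg1 call was lost, at 1.42 to 1.80, without mock 1 h replicate 2, LPS 1 h replicate 2, mock 2 h replicate 1, LPS 2 h replicate 1, replicate 1 of 9 h in either arm, mock 12 h replicate 2 or LPS 12 h replicate 1.

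Interferon, antigen presentation and maturation genes stood higher with LPS, namely Ifi205 (4.88), Ifit2 (3.59), Rsad2 (2.49), Psmb9 (1.89), Cd40 (1.49) and the row BC002288;B2m (1.17). For Ifi205 the LPS change itself was 3.04. The rest of its 4.88 is its mock difference of -1.85, which rests on very low levels. The higher genes also included Car2 (2.48), Sod2 (0.80) and Prdx1 (0.77). The Prdx1 call was lost after quantile normalization (0.50), and, at 0.63 to 0.70, without LPS 1 h replicate 2, mock 2 h replicate 1, mock 9 h replicate 2, LPS 9 h replicate 1 or mock 12 h replicate 2.

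Genes of lipid synthesis stood lower with LPS, namely Cyp51 (-2.87), Fasn (-2.42), Fdps (-1.58) and Idi1 (-1.03). Of growth and division, lower genes were Gar1 (-1.92), Cdk1 (-1.71), Mybbp1a (-1.34), Mcm3 (-1.32) and Nme1 (-1.22). The mannose receptor Mrc1 (-2.89), S100a9 (-1.56) and Ndufa6 (-0.78) were lower too. Ndufa6 missed the threshold after median-ratio rescaling (-0.47). S100a9 missed it after that rescaling (-1.25) and without any of 12 of the 16 libraries, at -1.20 to -1.63; the 4 libraries without which it was still called were mock replicate 1 of 1 h and of 2 h, LPS replicate 2 of 2 h and mock replicate 2 of 9 h.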

How the results depend on the processing

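Late minus early in mock cells had 0 called genes under each of the 24 alternatives, with 30 to 172 genes at an unadjusted p under 0.05. The smallest adjusted p over them was 0.0618, and leaving out any of the 8 libraries also gave 0 calls. The number of genes whose interval lay within 2-fold ran from 2406 (76.5%) to 3063 (97.3%) over all alternatives, and from 2465 to 2664 when 1 library was left out. A slope over the 6 mock times, chosen after seeing the data, called 0 genes (62 unadjusted). Early against 0 h had 1 call, the eosinophil peroxidase gene Epx, with no variance trend, and 1, Nhlrc3, without replicate 1 of 0 h (0 to 1 over the libraries left out). Late against 0 h likewise had 1, Nhlrc3, without that library (0 to 1). The cause was not tested. Of 912 list medians under other settings 200 moved, with a range of -0.87 (granulocyte genes) to 0.61 (Car2 alone). LPS late minus early had 912 calls when its own libraries were fitted alone, against 1462.

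The replicate numbers are shared by the groups, and the labels do not say what they mark. Deviations from the mean of a time correlated across genes between libraries of the same number, with r of 0.547 to 0.673 between the 4 mock times. With a replicate block, late minus early in mock cells still had 0 calls but 172 genes at an unadjusted p under 0.05 and a smallest adjusted p of 0.0618. The block also left 84 genes with an interval past 2-fold, against 353, and 2351 within 1.5-fold, against 1500. The block gave 1 call for early against 0 h (Epx), and 1441 for the difference between LPS and mock (356 higher, 1085 lower) against 814. Leaving out 1 library gave 640 to 843 for that difference. Of the genes named as called for that difference, 0 reversed direction under any alternative. The unknown depth limits what can be said of genes under 10 TPM.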
